A study of Mus musculus with 22 samples.

Results

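The HoxD cluster is a row of 9 homeobox genes, Hoxd1, Hoxd3, Hoxd4, Hoxd8, Hoxd9, Hoxd10, Hoxd11, Hoxd12 and Hoxd13. They were taken by symbol from the 32285 genes of the deposited tables. All 9 were present there. The rule used the symbols alone, though earlier results of these data were known when the members were chosen. Their mRNA is described here in mouse gastruloids, which are aggregates of embryonic stem cells that form cell types of the trunk of the early embryo in culture. Gastruloids came from wild-type cells of one line, E14Tg2A: 300 cells were seeded in a well, left for 48 h to aggregate and then pulsed with CHIR99021 at 3 µM, which blocks GSK3 and so switches on the Wnt pathway. Every group had this treatment, and they differed in the day of collection and the experiment. Cells of single gastruloids carried a lipid-anchored barcode (MULTI-seq), so that a cell in a shared 10x lane could be traced to its gastruloid. Per the labels' protocols, representative gastruloids were selected for barcoding, so they are no random sample of the cultures.

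The gastruloid was the replicate, and lanes are technical splits of one pool. After leaving out gastruloids with fewer than 30 cells, MULTI-seq 3 gave 24 gastruloids at day 3 and 16 each at days 3.5, 4, 4.5 and 5. From MULTI-seq 2 came 11 gastruloids of day 4 and 12 of day 4.5, and from MULTI-seq 1 came 24 of day 5. Days 3.5 and 4 of MULTI-seq 3 shared 1 pool, days 4.5 and 5 shared another, and day 3 had its own. Days of different pools cannot be told apart from the pool. Of 77674 table cells found in 18 lanes, 53730 had a gastruloid call. A gastruloid held between 1293296 and 57333371 UMIs (unique molecules counted), and median UMIs per cell ranged from 8287 to 38443 over lanes. The median mitochondrial share was 1.94% to 2.26% in the lanes of MULTI-seq 3 and 4.85% to 5.48% in the others. Across lanes, 732 cell barcodes occurred in 2 or more. Levels are in CPM, the UMIs of a gene scaled to one common total of UMIs for every sum of cells. Counts from the 3′ end do not scale with gene length, and levels are compared below between samples and cell types, not between genes. Fewer expressing cells and less mRNA per cell cannot be told apart in a whole gastruloid.

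Hox genes encode homeodomain transcription factors that give cells of the body axis their position from head to tail. In vertebrates they lie in several clusters, and within a cluster genes at the 3′ end come on earlier and farther forward than genes at the 5′ end, a relation known as collinearity. Hoxd1, Hoxd3 and Hoxd4 belong to the 3′ and anterior groups, Hoxd8 and Hoxd9 are central, and Hoxd10 to Hoxd13 are the posterior, 5′ group known for their part in limbs, genitals and the tail end of the trunk.

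In the GRCm38 (mm10) mouse genome and GENCODE release M21, the 9 genes lay on the plus strand of chromosome 2 between 74668310 and 74765142, a span of 96.8 kb. Hoxd13 stood first at 74668310 to 74671599 and Hoxd1 last at 74762980 to 74765142. Hoxd9 occupied 74697727 to 74700208. The annotated spans of Hoxd3 (74711927 to 74748442) and Hoxd4 (74711929 to 74729160) overlap, and the pair shares 388 exonic bases on the same strand, 9.26% of the exonic bases of Hoxd3 and 13.2% of those of Hoxd4. Both also share 347 exonic bases with the antisense gene Hoxd3os1. Reads from shared bases could be split or dropped by the counting, so the values of these 2 genes are uncertain to that extent.

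The sequences upstream of Hoxd1, Hoxd4 and Hoxd9 are shown as examples of genes that the results describe at length. They are given 5′ to 3′ on the plus strand from RefSeq (GRCm38.p6), with matches to 6 searched motifs in capitals.

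Hoxd1, chr2:74762730-74762979: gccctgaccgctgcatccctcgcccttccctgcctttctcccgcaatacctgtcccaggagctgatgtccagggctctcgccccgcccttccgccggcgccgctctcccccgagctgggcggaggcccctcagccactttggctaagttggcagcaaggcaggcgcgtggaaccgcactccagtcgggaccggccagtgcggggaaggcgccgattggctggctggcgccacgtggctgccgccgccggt

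Hoxd4, chr2:74721728-74721977: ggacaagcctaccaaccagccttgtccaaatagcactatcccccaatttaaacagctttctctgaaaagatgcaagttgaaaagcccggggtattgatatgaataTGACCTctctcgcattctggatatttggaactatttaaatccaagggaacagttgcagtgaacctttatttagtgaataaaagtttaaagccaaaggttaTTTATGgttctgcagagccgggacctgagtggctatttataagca

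Hoxd9, chr2:74697513-74697726: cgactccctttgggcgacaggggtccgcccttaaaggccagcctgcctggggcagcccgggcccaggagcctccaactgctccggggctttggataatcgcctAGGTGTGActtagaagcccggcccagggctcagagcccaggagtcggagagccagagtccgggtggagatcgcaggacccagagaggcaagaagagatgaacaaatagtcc

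The stretches of Hoxd1 and Hoxd4 run up to the base before the RefSeq start site. That of Hoxd9 is shorter, ending at position 74697726, before the annotated exon of Hoxd9 and short of its RefSeq start site. The start site used for Hoxd4 lies inside the annotated spans of Hoxd3 and Hoxd4. The window of Hoxd1 overlaps an exon of Haglr, a long noncoding RNA on the other strand. Both strands of 10 promoter windows of 250 bases, for 9 of 9 genes, were searched for exact letters. TTTATG, bound by CDX factors, was matched upstream of Hoxd3, Hoxd4 and Hoxd11, and in 10.8% of all 32851 RefSeq promoter windows. The T-box motif AGGTGTGA was matched in Hoxd9 alone of the 9 genes, 147 bases before the start, and in 1.12% of all windows. AGGTCA, recognised by retinoic acid receptors, was matched in Hoxd3, Hoxd4, Hoxd8 and Hoxd10, and in 14% of all windows. In Hoxd3 this match overlaps the one of CDX. The letters CTTTGA, a core of TCF/LEF sites, were matched in Hoxd8 and Hoxd12 (13.8% of all windows), TGGGAA, the core bound by RBPJ, in Hoxd3 (21.6%), and TGATNNAT, of HOX and PBX pairs, in Hoxd11 (7.68%). No motif was matched in the windows of Hoxd1 and Hoxd13, which had the highest GC content of the 9 genes, 71.6% and 74.4%, against a median of 52.4% over all windows. These are matches of letters, not measured binding sites.

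In whole gastruloids of MULTI-seq 3, Hoxd1, Hoxd3 and Hoxd4 were near their later levels by day 4, while Hoxd8 and Hoxd9 had their highest means at day 5. Day 4 was in another pool than days 4.5 and 5. The mean share of neural cells was 10.2% at day 4, 41.6% at day 4.5 and 33.9% at day 5. The part of pool and cell types in this timing was not tested. Within most cell types tested, Hoxd3 and Hoxd4 still rose from day 4.5 to day 5, as given below. In the cell type Late Anterior PSM the mean of Hoxd3 was lower at day 5 than at day 4, as also given below. Hoxd1 was low at day 3 and had reached its later level by day 4. Over days 3, 3.5, 4, 4.5 and 5 its means were 1.02 ± 0.543 CPM (SD, n = 24), 4.75 ± 1.15, 8.86 ± 2.57, 10.4 ± 4.28 and 8.67 ± 2.53 (n = 16 each). No gastruloid of day 3 reached the lowest of day 3.5, and the ranges of days 4, 4.5 and 5 overlapped widely.

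The median of Hoxd4 differed most between days 3 and 3.5. The lowest, median and highest gastruloids of day 3 held 0.311, 1.58 and 2.61 CPM, those of day 3.5 held 2.92, 19.7 and 31.6, and those of day 4 held 12.3, 29.7 and 56.1. The same values were 17.1, 30.2 and 40.1 for day 4.5 and 23.9, 36.1 and 43.7 for day 5. Every gastruloid of day 3.5 was above every gastruloid of day 3, a difference between 2 pools. Hoxd3, its neighbour, had means of 0.109 ± 0.179, 3.30 ± 2.41, 8.12 ± 3.13, 7.12 ± 1.88 and 8.81 ± 1.43 CPM over the same 5 days, and was at 0 in 15 of the 24 gastruloids of day 3.

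In MULTI-seq 3, whose days came from several pools, the means of the central genes were higher at each later day. Hoxd8 went through 0.396 ± 0.243, 2.74 ± 2.38, 5.26 ± 2.34, 10.6 ± 4.53 and 15.7 ± 4.48 CPM. For Hoxd9 the lowest, median and highest gastruloids of day 3 held 0.127, 0.957 and 2.21 CPM, and those of day 3.5 held 0.420, 6.52 and 41.0. At the later days these values were 1.85, 15.9 and 38.2 (day 4), 1.43, 20.7 and 48.9 (day 4.5), and 8.0, 46.9 and 64.8 (day 5). Its medians were higher at each later day, while single gastruloids of days 3.5 to 4.5 ranged from almost none to the level of day 5. In MULTI-seq 2, where days 4 and 4.5 shared a pool, the Hoxd9 mean was lower at day 4.5 (12.3 ± 14.8 and 9.41 ± 7.28 CPM). Hoxd8 was at 4.24 ± 3.66 and 5.12 ± 3.27 CPM there, and neither gene passed the test given below.

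The 5′ genes were almost silent. Hoxd10 gave 21 UMIs in all gastruloids of day 4.5 (0.145 ± 0.236 CPM, 0 in 8 of 16) and 412 UMIs at day 5 (1.2 ± 1.11 CPM, 0 in 1 of 16, highest 3.76). At day 5 of MULTI-seq 1 it was at 1.32 ± 1.30 CPM (n = 24) and 0 in 4 gastruloids. Hoxd11 gave 18 UMIs at day 5 of MULTI-seq 3, a mean of 0.0599 CPM, and 18 at day 5 of MULTI-seq 1. Hoxd12 gave 1 UMI in all the gastruloids used, at day 3 of MULTI-seq 3, and its 0 UMIs at day 5 of MULTI-seq 1 allow up to 0.0251 CPM over the group (3 UMIs). Hoxd13 had means of 0.342 ± 0.228 CPM (59 UMIs at day 3), 0.273, 0.158, 0.0804 and 0.0754 (29 UMIs at day 5) over the 5 days. Its means thus ran in the opposite order to those of Hoxd8 and Hoxd9, at levels of a few UMIs per gastruloid. In the 10X experiment, with 1 lane a day and no replicate, Hoxd13 gave 35 UMIs at day 3 (0.642 CPM, exact Poisson 95% interval 0.447 to 0.893, counting error only) and 3 UMIs at day 4 (0.0798 CPM).

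**Figure D1:**
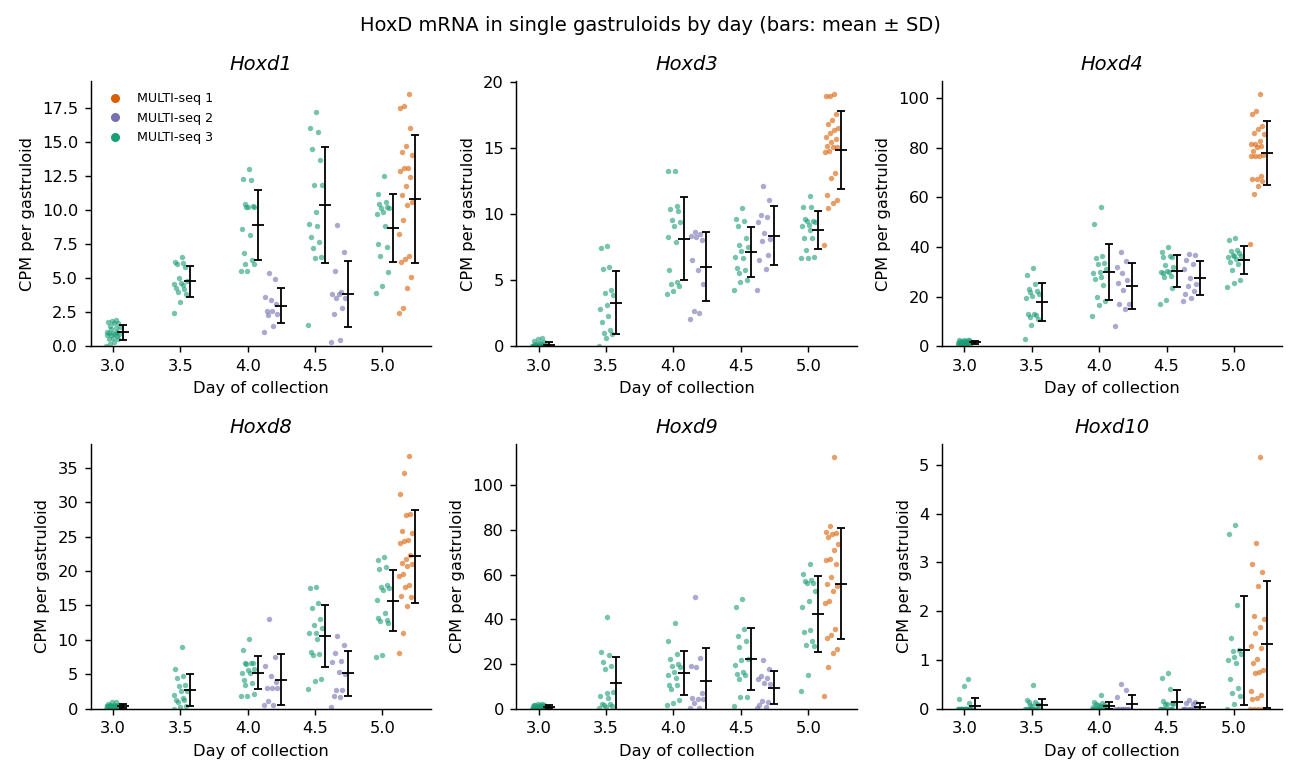
CPM of 6 HoxD genes in each gastruloid (points, coloured by experiment) against the day of collection, with mean ± SD beside each group in black. Hoxd1 levels off from day 4, Hoxd8 and Hoxd9 are highest at day 5, Hoxd10 has a mean of 1.2 CPM at day 5 of MULTI-seq 3 against 0.145 at day 4.5, and Hoxd4 of MULTI-seq 1 at day 5 lies far above MULTI-seq 3.

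Days barcoded in the same pool were tested against each other over gastruloids, with edgeR's quasi-likelihood test and Benjamini-Hochberg adjustment over all genes tested. Hoxd1, Hoxd3, Hoxd4, Hoxd8 and Hoxd9 passed the filter on low counts in whole gastruloids, and Hoxd10 to Hoxd13 did not. Between days 3.5 and 4 of MULTI-seq 3 the 3′ genes rose and Hoxd9 did not pass the test. Hoxd1 rose by a log2 fold change of 0.88 (SE 0.14, adjusted p = 3.88e-06), Hoxd3 by 1.19 (SE 0.29, adjusted p = 0.000838), Hoxd4 by 0.69 (SE 0.21, adjusted p = 0.00589) and Hoxd8 by 0.81 (SE 0.33, adjusted p = 0.0318). Hoxd9 differed by 0.39 (SE 0.45, adjusted p = 0.461). In this comparison 31.1% of all genes tested were called higher and 29.2% lower, so 4 of 5 members called stands against a large background. The share of neural cells moved with the day, from a mean of 37.3% at day 3.5 to 10.2% at day 4. With that share as a covariate Hoxd1, Hoxd3 and Hoxd4 were still called, Hoxd8 was at 0.22 (adjusted p = 0.488) and Hoxd9 at -0.48 (adjusted p = 0.169). With at least 100 cells required of a gastruloid 3 of 5 members were called, and Hoxd8 was at 0.70 (adjusted p = 0.0550).

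Between days 4.5 and 5 of MULTI-seq 3 Hoxd9 was the 1 member of 5 called. Hoxd9 rose by a log2 fold change of 0.89 (SE 0.29, edgeR adjusted p = 0.0393), and 14 of 16 gastruloids of day 5 lay above the median of day 4.5. Hoxd8 differed by 0.54 (adjusted p = 0.0608), Hoxd3 by 0.29 (adjusted p = 0.0881), Hoxd4 by 0.17 (adjusted p = 0.293) and Hoxd1 by -0.29 (adjusted p = 0.377). Of all genes tested 6.35% were called higher and 7.11% lower. The call of Hoxd9 is close to the threshold, with an adjusted p of 0.0545 when genes of low count were kept in. DESeq2 called Hoxd8 as well, at an adjusted p of 0.0390. Neural cells were 41.6% at day 4.5 and 33.9% at day 5, and with their share as a covariate Hoxd3, Hoxd8 and Hoxd9 were called. With no filter on low counts Hoxd10 was tested too, and rose by 3.02 (edgeR adjusted p = 0.00147).

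Between days 4 and 4.5 of MULTI-seq 2 no member passed. Means were 2.97 ± 1.30 and 3.82 ± 2.42 CPM for Hoxd1, 24.1 ± 9.23 and 27.5 ± 6.85 for Hoxd4, and 12.3 ± 14.8 and 9.41 ± 7.28 for Hoxd9 (n = 11 and 12). Of 5 members tested edgeR and DESeq2 each called 0, and 1 had an unadjusted edgeR p under 0.05, Hoxd3, with a log2 fold change of 0.47 (adjusted p = 0.183). Here 3.03% of all genes tested were called higher and 4.33% lower. Hoxd9 of day 4 ranged from 0.496 to 50.0 CPM between gastruloids of this pool. Their neural share was 23.0% on average at day 4 and 43.5% at day 4.5, and with it as a covariate Hoxd3 was called at 0.68 (adjusted p = 0.0139).

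The same days were then compared within cell types, as named in the authors' table, on UMIs summed per gastruloid and type with at least 20 cells. Such a comparison holds the type fixed, as far as the clustering does, while shares of types may change. In Early Posterior PSM, the presomitic mesoderm that will form somites, Hoxd1 rose from day 3.5 to day 4 by a log2 fold change of 0.52 (SE 0.17, edgeR adjusted p = 0.0138), Hoxd3 by 0.77 (SE 0.14, adjusted p = 5.66e-05), Hoxd4 by 0.74 (SE 0.11, adjusted p = 1.66e-06) and Hoxd8 by 0.67 (SE 0.19, adjusted p = 0.00485). Hoxd9 differed by 0.18 (SE 0.17, adjusted p = 0.436), with 25.2 ± 10.2 CPM in 10 gastruloids of day 3.5 and 31.7 ± 14.5 in 15 of day 4. With no filter on low counts Hoxd13 was tested there as well, and fell by 1.84 (SE 0.49, edgeR adjusted p = 0.00554), with 25 UMIs over all cells of the type at day 3.5 and 9 at day 4. The background was 18.3% called higher and 18.6% lower. In Caudal Epiblast, the posterior progenitor layer, 3 members passed the filter. Hoxd4 went from 27.7 ± 8.81 to 50.9 ± 11.6 CPM (n = 13 on each day), a rise of 0.89 (SE 0.15, edgeR adjusted p = 5.39e-05), and all 13 gastruloids of day 4 lay above the median of day 3.5. Hoxd8 differed by 0.48 (adjusted p = 0.271) and Hoxd9 by -0.13 (adjusted p = 0.839). There 9.58% of genes were called higher and 9.19% lower.

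From day 4.5 to day 5 Hoxd9 rose in each of the 4 types tested and Hoxd1 passed in none of them. In NMPs, the neuromesodermal progenitors at the tail end, Hoxd9 went from 61.8 ± 23.3 CPM (n = 8) to 139 ± 24.3 (n = 14), a log2 fold change of 1.04 (edgeR adjusted p = 8.88e-08). Each of the 14 gastruloids of day 5 was above the median of day 4.5. In Late Posterior PSM it went from 71.0 ± 19.2 (n = 9) to 134 ± 30.2 CPM (n = 15), by 0.91 (adjusted p = 1.32e-07). In Early Spinal Cord it went from 22.2 ± 13.9 (n = 14) to 64.4 ± 22.2 CPM (n = 15), by 1.49 (SE 0.23, adjusted p = 1.10e-05). In Mature Somites it went from 6.80 ± 2.33 (n = 10) to 12.3 ± 4.52 CPM (n = 16), by 0.91 (adjusted p = 0.00598). Ranges of the 2 days overlapped in all 4 types.

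Hoxd8 also rose in each of the 4 types, by 0.84 in NMPs (edgeR adjusted p = 0.000151), 0.56 in Late Posterior PSM (0.000256), 0.76 in Early Spinal Cord (0.00131) and 0.77 in Mature Somites (0.00281). Hoxd4 rose by 0.54 in NMPs (0.000387), 0.46 in Early Spinal Cord (6.48e-05) and 0.41 in Mature Somites (0.000837), and differed by 0.13 in Late Posterior PSM (adjusted p = 0.268). Hoxd3 rose by 0.76 in NMPs (0.0153, and 0.113 with at least 40 cells of the type, in 2 gastruloids of day 4.5 and 11 of day 5), 0.81 in Early Spinal Cord (0.00104) and 0.48 in Mature Somites (0.0101), and differed by 0.14 in Late Posterior PSM (adjusted p = 0.682). For Hoxd1 the log2 fold changes were 0.17 in NMPs (adjusted p = 0.734), -0.14 in Late Posterior PSM (0.624), 0.10 in Early Spinal Cord (0.776) and -0.10 in Mature Somites (0.840). The share of all genes called higher and lower was 2.58% and 3.49% in NMPs, 3.14% and 3.02% in Late Posterior PSM, 6.33% and 5.99% in Early Spinal Cord, and 6.94% and 7.66% in Mature Somites. Differences between members were not tested.

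**Figure D2:**
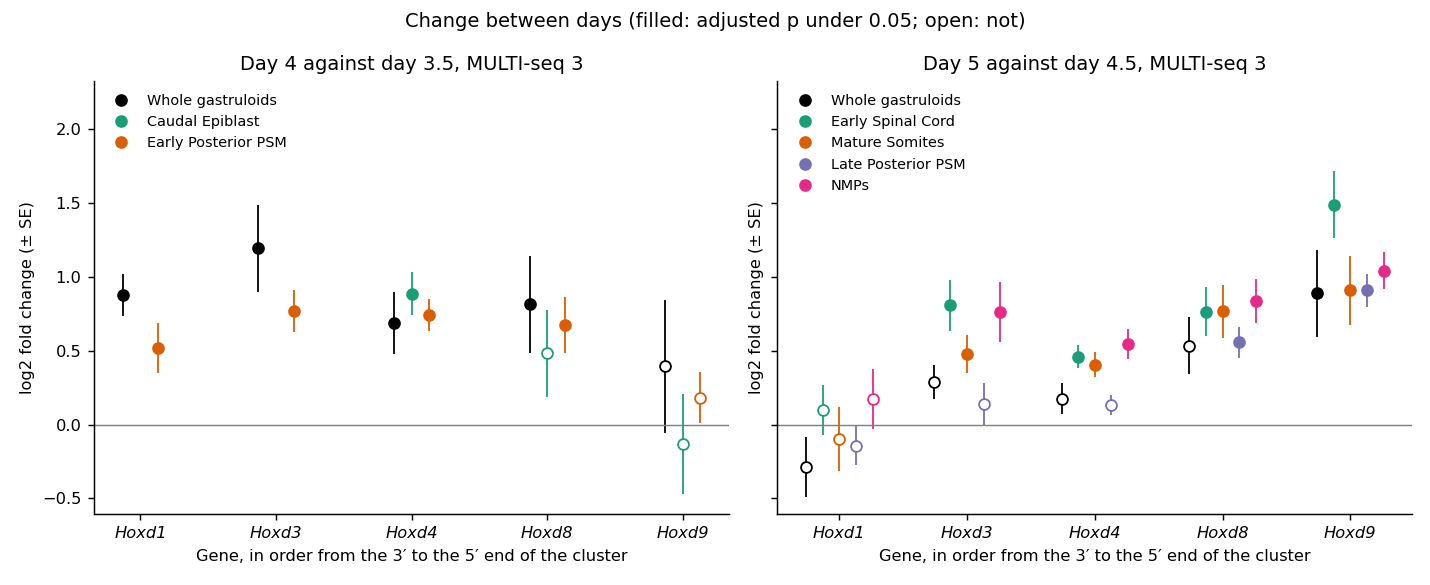
Log2 fold change (± SE) of 5 HoxD genes between days of MULTI-seq 3 that shared a pool, in whole gastruloids (black) and within cell types (colours), with genes in order from the 3′ to the 5′ end of the cluster; filled points passed an adjusted p of 0.05. On the left Hoxd9 is open in all groups, and on the right Hoxd1 is open and Hoxd9 filled in all groups.

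Other genes of the Hox system were taken as lists. Of 30 other Hox genes, 21 were tested in whole gastruloids between days 3.5 and 4, of which 2 were called higher and 4 lower, both smaller shares than the 31.1% and 29.2% of all genes. Between days 4.5 and 5, 24 were tested, 4 higher and 1 lower, where 6.35% and 7.11% of all genes were called, with Hoxc10 at a log2 fold change of 2.75 (edgeR adjusted p = 9.50e-07) and Hoxa10 at 2.40 (adjusted p = 6.05e-05). Within types from day 4.5 to day 5, Mature Somites had 14 of 20 tested higher and 2 lower, and Early Spinal Cord 10 of 23 higher and 3 lower. Late Posterior PSM had 6 of 21 higher and 3 lower, and NMPs 6 of 23 higher and 3 lower. From day 3.5 to day 4, Caudal Epiblast had 11 of 20 higher and 1 lower, and Early Posterior PSM 8 of 14 higher and 2 lower. The shares of all genes called in each of these types are those given above. The posterior genes Hoxc10 and Hoxa10 rose in Early Spinal Cord by 3.07 and 2.76, and in the same cells Hoxd10, tested with no filter, rose by 3.39 (edgeR adjusted p = 0.000210). That rise of Hoxd10 started near 0, at a mean of 0.15 CPM in Early Spinal Cord of the 8 gastruloids of day 4.5 that also held NMPs. Of 16 listed upstream signals and regulators of Hox genes, 15 were tested between days 3.5 and 4, with 1 higher and 10 lower beside the same 31.1% and 29.2% of all genes. In Caudal Epiblast 7 of 13 were higher and 3 lower, with Fgf4, a growth factor of the tail end, at a log2 fold change of 1.70 and Cdx1, a CDX factor, at -1.21. In Early Posterior PSM 1 of 14 was higher and 8 lower, with Cdx1 at -2.47. Differences between these splits were not tested. Between days 4.5 and 5 0 were called higher and 6 of 16 lower, among them Cdx1 at -1.46 (edgeR adjusted p = 0.0233) and Fgf4 at -1.53 (adjusted p = 0.0113). Hoxd3os1, antisense to Hoxd3 and Hoxd4, also rose from day 3.5 to day 4, by 0.79 in whole gastruloids (edgeR adjusted p = 0.00182), 0.97 in Caudal Epiblast (0.00160) and 1.13 in Early Posterior PSM (2.81e-05), and by 0.50 in Mature Somites from day 4.5 to day 5 (0.0211). Its part in the rises of Hoxd3 and Hoxd4 was not tested.

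Cell types of day 5 differed in which members they held. Types are clusters of gene expression, in which HoxD genes may have had a part, so differences between types are described and not tested. In MULTI-seq 1, Somites had 264 cells and Mature Endoderm 167 in all, so their means rest on few gastruloids. Marker lists for spinal cord, PSM, somites, endoderm, endothelium and cardiopharyngeal mesoderm were highest in types of those names in MULTI-seq 3, while the NMP markers T, Sox2 and Nkx1-2 summed highest in Notochord (940 CPM) and next in NMPs (299 CPM). In MULTI-seq 1 the spinal cord list was highest in Late Neurectoderm (649 CPM, against 612 in Late Spinal Cord), and the NMP list in Notochord (585 CPM), then Late Spinal Cord (356) and NMPs (339). The head mesoderm list was highest in Cardiopharyngeal Mesoderm, at 675 CPM against 607 in Head Mesoderm in MULTI-seq 3 and 707 against 706 in MULTI-seq 1.

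Hoxd1 peaked in Late Anterior PSM, the mesoderm about to form somites. It held 73.3 ± 8.40 CPM there in MULTI-seq 3 (n = 12) and 79.8 ± 30 in MULTI-seq 1 (n = 14). Somites followed with 23.2 ± 12.1 and 20.4, Late Posterior PSM with 12.6 and 13.8, NMPs with 9.93 and 12.5, Early Spinal Cord with 6.04 and 7.13, Mature Somites with 4.26 and 4.92, and Late Spinal Cord with 2.36 and 3.94. Late Anterior PSM was above Late Posterior PSM in 12 of 12 gastruloids of MULTI-seq 3 that held both and 13 of 13 of MULTI-seq 1, by a factor of 5.85 and 5.24 between means. Late Posterior PSM was above NMPs in 12 of 13 and 13 of 19 gastruloids, while the ranges of these neighbours in the order overlapped. Late Anterior PSM held 39.0% of the Hoxd1 UMIs of MULTI-seq 1 with 6.56% of the cells. At day 4 the same peak was present, with 66.5 ± 12.4 CPM in Late Anterior PSM (n = 9), 31.6 ± 12.6 in Early Anterior PSM (n = 14) and 11.6 ± 2.78 in Late Posterior PSM (n = 13).

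Hoxd9 was highest at the tail end. NMPs held 139 ± 24.3 CPM in MULTI-seq 3 (n = 14) and 145 ± 20.9 in MULTI-seq 1 (n = 20), and Late Posterior PSM 134 ± 30.2 (n = 15) and 129 ± 30.5 (n = 20). NMPs were the higher of these neighbours in 6 of 13 and 14 of 19 gastruloids holding both. Late Anterior PSM held 67.5 and 53.9 CPM and Early Spinal Cord 64.4 and 72.4, with Early Spinal Cord the higher in 6 of 11 and 10 of 12 gastruloids. Somites held 20.5 and 18.1, Mature Somites 12.3 and 12.7, Late Spinal Cord 7.16 and 8.0, and Mature Endoderm 2.20 and 6.40.

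The step within the spinal cord was steep for Hoxd9 and shallow for Hoxd4. Early Spinal Cord exceeded Late Spinal Cord in Hoxd9 in 8 of 8 gastruloids of MULTI-seq 3 and 11 of 11 of MULTI-seq 1, by 8.17 and 8.84 times between means. In Hoxd4 it did so in 7 of 8 and 9 of 11, by 1.29 and 1.17 times. From NMPs to Late Spinal Cord the ratio of means was 16.5 and 18.5 for Hoxd9, 4.22 and 3.51 for Hoxd8, 4.25 and 3.15 for Hoxd1, and 1.93 and 1.27 for Hoxd4. The Hoxd9 mean of Late Spinal Cord in MULTI-seq 3, 7.16 CPM, rests on 1 gastruloid of 8 at 41.3 CPM, the next being at 4.11. Without that gastruloid, a choice made after its value was seen, the mean was 2.28 ± 1.34 CPM (SD, n = 7). The ratio of Early to Late Spinal Cord was then 23.7 and that of NMPs to Late Spinal Cord 53.8. This mean is close to that of Mature Endoderm given above, so both ratios divide by a low level. Within gastruloids the median ratio of NMPs to Late Spinal Cord was 57.4 in MULTI-seq 3 and 34.3 in MULTI-seq 1.

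Hoxd4 was spread over nearly all trunk types. In MULTI-seq 3 it held 70.7 ± 7.77 CPM in Late Anterior PSM, 67.3 ± 6.16 in Late Posterior PSM, 63.1 ± 9.36 in NMPs, 43.5 ± 6.26 in Early Spinal Cord, 34.1 ± 5.57 in Late Spinal Cord, 31.4 ± 11.2 in Somites, 21.4 ± 2.41 in Mature Somites and 1.16 in Mature Endoderm. These first types lay close together: Late Anterior PSM was above Late Posterior PSM in 8 of 12 gastruloids holding both, and Late Posterior PSM above NMPs in 10 of 13. Hoxd8 was at 40.2 CPM in Late Anterior PSM, 39.2 in Late Posterior PSM, 33.0 in NMPs, 19.0 in Early Spinal Cord, 8.94 in Mature Somites and 7.34 in Late Spinal Cord. Hoxd3 was at 20.3 CPM in Late Anterior PSM, 14.2 in Late Posterior PSM, 11.5 in NMPs, 9.29 in Mature Somites, 7.55 in Early Spinal Cord and 7.10 in Late Spinal Cord. At day 4 Hoxd3 in Late Anterior PSM was at 44.3 ± 8.89 CPM (n = 9).

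Hoxd10 had its highest means in NMPs and Early Spinal Cord. NMPs held 6.14 ± 4.79 CPM in MULTI-seq 3 and 5.18 ± 5.16 in MULTI-seq 1, Early Spinal Cord 2.64 and 2.29, and Late Posterior PSM 1.30 and 0.675. Late Posterior PSM gave a UMI in 12 of 15 gastruloids of MULTI-seq 3 and in 6 of 20 of MULTI-seq 1. Mature Somites and Somites gave 0 UMIs in both experiments. The 0 of Somites in MULTI-seq 1 rests on at most 264 cells at a median of 10712.5 UMIs. That is too little to place Somites below the 0.675 CPM of Late Posterior PSM there. In MULTI-seq 1, Early Spinal Cord and NMPs together gave 81 and 69 of the 166 Hoxd10 UMIs. Without a filter on low counts Hoxd10 rose from day 4.5 to day 5 within NMPs by a log2 fold change of 3.16 (edgeR adjusted p = 8.06e-05, 9 UMIs at day 4.5). It was called higher in Late Posterior PSM too (adjusted p = 0.000378), from 0 UMIs at day 4.5, which allow up to 0.187 CPM over the group (3 UMIs), to 32 at day 5.

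**Figure D3:**
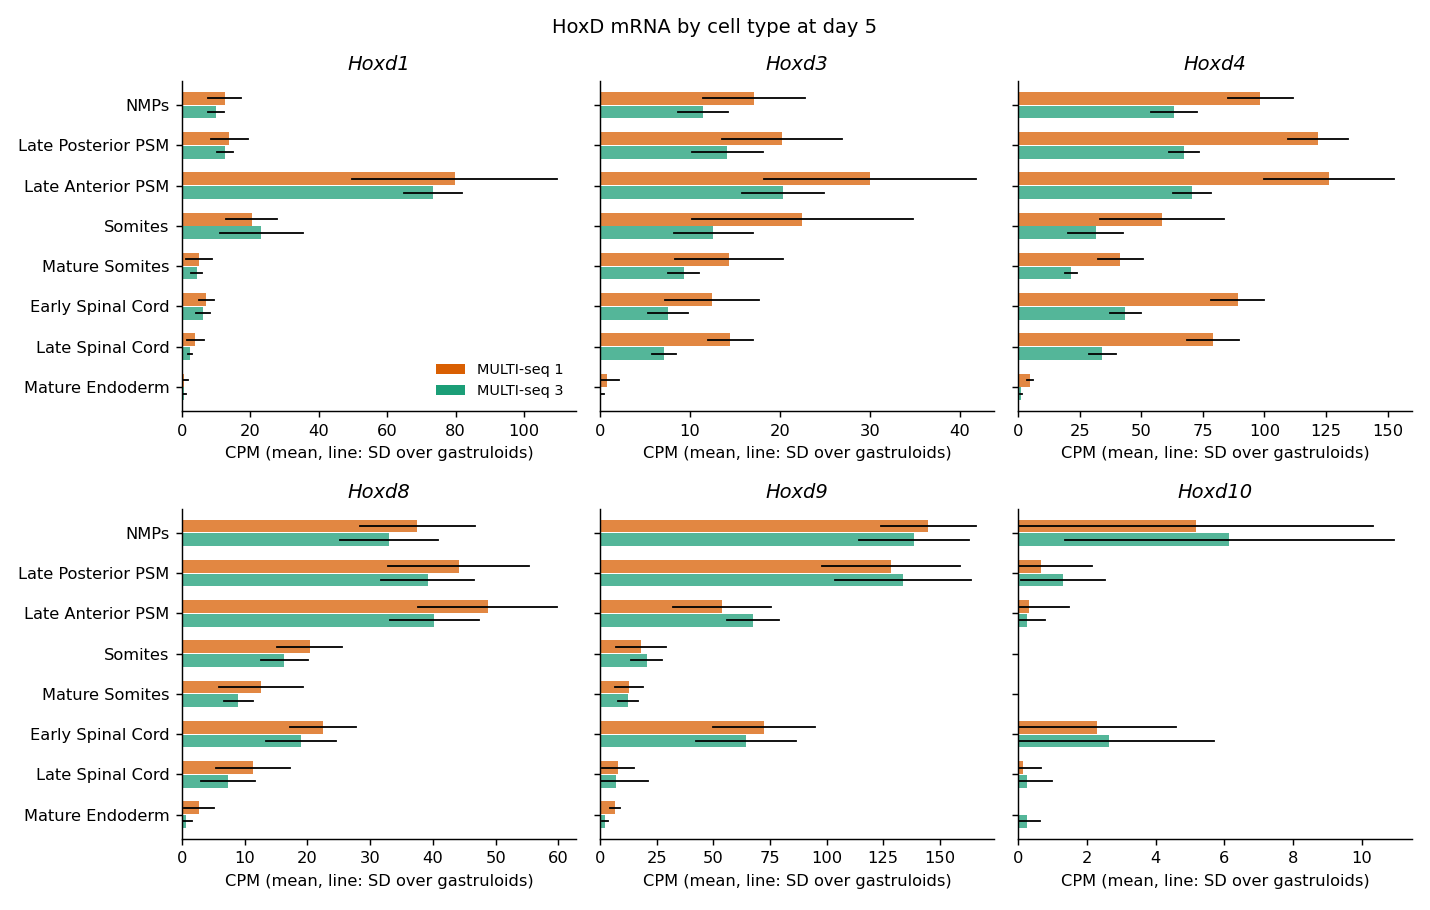
Mean CPM (bars) with the SD over gastruloids (lines) of 6 HoxD genes in 8 cell types at day 5, for MULTI-seq 1 and MULTI-seq 3; types with fewer than 3 gastruloids are left out. Hoxd1 stands out in Late Anterior PSM (79.8 and 73.3 CPM). Hoxd9 and Hoxd10 have their highest means in NMPs, with Late Posterior PSM close to NMPs in Hoxd9. Hoxd4 is lower in MULTI-seq 3 than in MULTI-seq 1 in every type drawn.

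Shares of cells with a UMI followed the same layout. With each cell of day 5 of MULTI-seq 3 thinned to 5000 UMIs, 48.9% of NMPs held Hoxd9 (416 of 850 cells, exact Clopper-Pearson 95% interval 45.5% to 52.4%, counting error only), against 91.6% unthinned at a median of 28180.5 UMIs. In Mature Endoderm, which had the lowest Hoxd9 mean of the types listed above, 1.34% did (6 of 449, median 36116 UMIs). Whether these cells express Hoxd9 was not tested. Thinned shares of Hoxd9 were 43.9% in Late Posterior PSM, 25.3% in Late Anterior PSM, 23.7% in Early Spinal Cord, 6.05% in Mature Somites and 2.38% in Late Spinal Cord, whose interval of 1.77% to 3.13% overlaps that of Mature Endoderm. Of the 50 Late Spinal Cord cells with Hoxd9 after thinning, 34 came from the gastruloid that stood apart. It had 185 cells of the type, 18.4% of them with Hoxd9. Without it the share was 0.836% (16 of 1913, 0.479% to 1.35%). Unthinned, 9.29% of Late Spinal Cord cells held Hoxd9, 5.07% without that gastruloid, and 5.57% of Mature Endoderm cells. For Hoxd1 the thinned share was 29.0% in Late Anterior PSM (162 of 558) and 0 of 449 in Mature Endoderm. Counting 3 cells as the limit of a count of 0, this allows up to 0.668% of cells with a UMI (exact upper bound 0.818%), which does not limit the cells expressing the gene. For Hoxd4 it was 28.1% in Late Posterior PSM, 14.8% in Late Spinal Cord and 0 of 449 in Mature Endoderm, with the same limit. For Hoxd10 it was 3.41% in NMPs (29 of 850) and 0 of 3190 in Mature Somites, which by 3 cells allows up to 0.0940% (exact upper bound 0.116%). Mature Endoderm was not free of Hoxd10, with 0.257 ± 0.369 CPM (SD) and UMIs in 3 of 8 gastruloids.

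Experiments differed in Hoxd4 and Hoxd3 at day 5, and experiment cannot be told apart from culture, library and lane. In whole gastruloids Hoxd4 was at 77.8 ± 12.8 CPM in MULTI-seq 1 (n = 24; lowest, median and highest 41.2, 79.5 and 102) and 34.7 ± 5.67 in MULTI-seq 3 (n = 16; 23.9, 36.1 and 43.7). It fell by 0.95 on the log2 scale from MULTI-seq 1 to MULTI-seq 3 (SE 0.08, edgeR adjusted p = 1.76e-13), and Hoxd3 fell by 0.54 (SE 0.09, adjusted p = 8.83e-07). Hoxd8 differed by -0.30 (adjusted p = 0.0515), Hoxd9 by -0.20 (adjusted p = 0.422) and Hoxd1 by -0.14 (adjusted p = 0.507). Hoxd8 was called lower with the neural share as a covariate, at -0.39 (edgeR adjusted p = 0.00286), without lane 2 of MULTI-seq 1, at -0.34 (adjusted p = 0.0255), and without its lane 3, at -0.33 (adjusted p = 0.0336). Hoxd3os1, which shares exonic bases with Hoxd3 and Hoxd4 on the other strand, was higher in MULTI-seq 3 by 1.22 (SE 0.11, edgeR adjusted p = 1.59e-13). Its part in the values of Hoxd3 and Hoxd4 was not tested. Of all genes 30% were called higher and 33.7% lower. Of 24 other Hox genes tested, 1 was called higher and 11 lower, with Hoxb1 at -0.98 (edgeR adjusted p = 9.64e-06) and Hoxb3 at -0.70 (adjusted p = 5.46e-10). The Hoxd4 difference was found in each of 8 types. Ratios of mean CPM in MULTI-seq 3 to MULTI-seq 1 ran from 0.234 in Mature Endoderm and 0.431 in Late Spinal Cord to 0.642 in NMPs. These ratios lack the normalization of the fits. In whole gastruloids the CPM means of the 5 tested members differed between these experiments by more than their fitted log2 fold changes. Mature Endoderm held the least Hoxd4 of the types listed above, so its ratio compares low levels. In Early and Late Spinal Cord, Late Anterior and Late Posterior PSM and Mature Endoderm the 2 experiments did not overlap. Mature Endoderm of MULTI-seq 1 had 167 cells in all, so its range is that of few gastruloids. For Hoxd9 the ratio was 0.957 in NMPs, 1.04 in Late Posterior PSM and 0.889 in Early Spinal Cord, with overlapping gastruloids. The median mitochondrial share, named above, differed between these experiments too, and its part in the result was not tested.

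Against MULTI-seq 2, MULTI-seq 3 had more Hoxd1 on both shared days. The log2 fold change was 1.35 at day 4 (SE 0.20, edgeR adjusted p = 2.66e-06) and 1.38 at day 4.5 (SE 0.30, adjusted p = 0.000317). At day 4 it was the 1 member of 5 called, with 23% of genes called higher and 23.1% lower. At day 4.5 Hoxd8 was higher as well by 1.01 (SE 0.29, adjusted p = 0.00610) and Hoxd9 by 1.2 (SE 0.41, adjusted p = 0.0178), with 21.1% of genes called higher and 21.4% lower.

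Gastruloids of one group differed more in Hoxd9 than in Hoxd4. At day 5 the SD between whole gastruloids, with the counting error removed, was 40.1% of the mean for Hoxd9 in MULTI-seq 3 and 43.7% in MULTI-seq 1, against 15.8% and 15.5% for Hoxd4. Before removal the value for Hoxd9 in MULTI-seq 3 was 104%, 61.7%, 62.0% and 40.3% over days 3.5, 4, 4.5 and 5. Within one cell type the spread of Hoxd9 at day 5 was 16.0% and 8.10% in NMPs and 21.1% and 20.2% in Late Posterior PSM. In Early Spinal Cord it was 33.5% and 29.0%, in Mature Somites 34.2% and 32.3%, and in Late Anterior PSM 11.9% and 33.5%. Late Spinal Cord was wider than whole gastruloids, at 193% in MULTI-seq 3, where 1 of 8 gastruloids stood apart, and 76.0% in MULTI-seq 1. Hoxd4 in Late Posterior PSM had no spread beyond counting error in either experiment. The variance of Hoxd9 over that of Poisson counts in MULTI-seq 3 at day 5 was 181 between gastruloids and 5.48 between the lanes of a gastruloid.

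**Figure D4:**
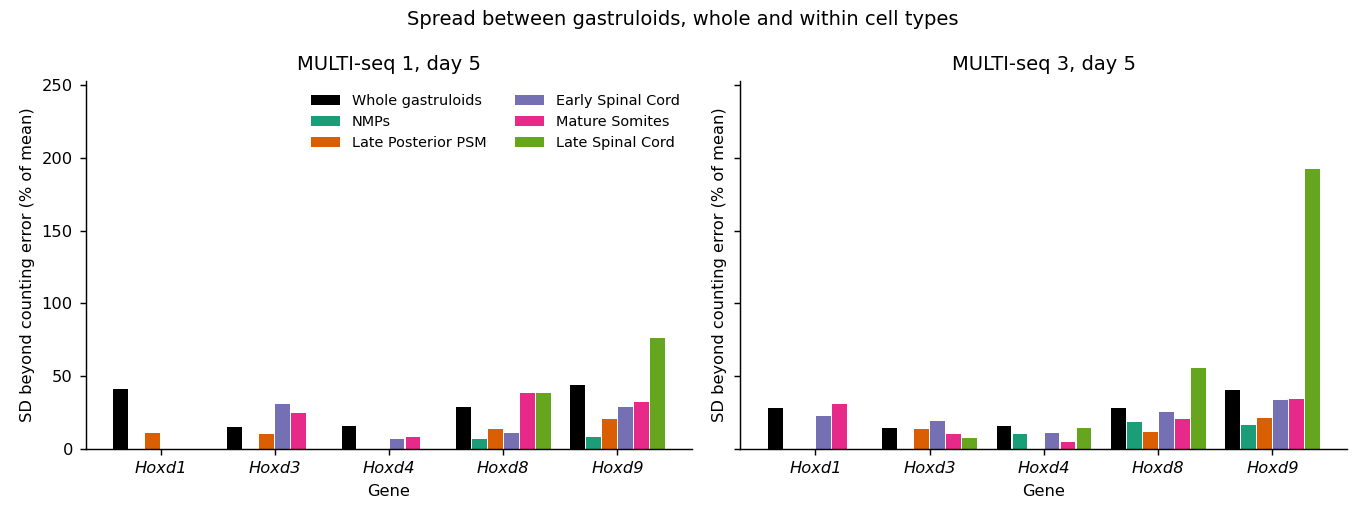
SD between gastruloids at day 5 with the Poisson part removed, as a percentage of the mean, for 5 HoxD genes in whole gastruloids (black) and within 5 cell types (colours); a missing bar is 0 or had too few UMIs. For Hoxd9 whole gastruloids stand at 43.7% and 40.1%, NMPs at 8.10% and 16.0%, and Late Spinal Cord at 76.0% and 193%. In the group at 193% the highest of 8 gastruloids stood apart from the others.

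Whether a gastruloid high in a member in one type was also high in another was examined over gastruloids holding both types, on log2(CPM + 10). Of 27 relations, 0 passed Benjamini-Hochberg adjustment, the lowest adjusted permutation p being 0.255. The relation of Hoxd9 between Mature Somites and Late Posterior PSM had r = 0.53 (rho = 0.54, two-sided permutation p = 0.0152 and 0.0143, n = 20) in MULTI-seq 1 and r = 0.59 (rho = 0.53, permutation p = 0.0189 and 0.0450, n = 15) in MULTI-seq 3. Adjusted, these p-values were 0.255 for r and 0.355 for rho in both experiments. Leaving out the 2 gastruloids most distant from the median on the x axis gave r = 0.46 and 0.41. A gastruloid's types share its lanes and its depth.

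Genes other than the 9 members with the most similar pattern were sought over 93 groups of type, day and experiment with at least 100 cells, among 10807 genes, as a description of groups that share lanes and depth. For Hoxd4 they were Hoxb4 (r = 0.96), Hoxa4 (0.93), Hoxb5 (0.93), Hoxb3 (0.91) and Haglr (0.89), a noncoding gene that shares exonic bases with Hoxd3. For Hoxd9 they were 2610528A11Rik (0.86), Hoxa4 (0.84), Hoxb4 (0.83), Haglr (0.83) and Hoxa5 (0.81). For Hoxd8 they were Hoxd3os1 (0.87), antisense to Hoxd3 and Hoxd4, Haglr (0.87), Hoxb4 (0.87), Hoxb3 (0.86) and Hoxa4 (0.85). Summed over its 9 genes, the HoxD cluster went from 4.6 ± 1.58 CPM at day 3 to 40.5 ± 23.9, 68.6 ± 26.9, 80.9 ± 26.7 and 112 ± 28.5 at days 3.5, 4, 4.5 and 5 of MULTI-seq 3, and was at 183 ± 44.9 at day 5 of MULTI-seq 1. Its closest gene by this measure was again Hoxb4 (r = 0.95).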

How the data were processed

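Single-cell 3′ libraries (10x Genomics v3.1) of mouse gastruloids were used as deposited by the authors: UMI counts per gene and cell, per the file headers, with the authors' table of final cells, gastruloid calls and cell type names. Cell Ranger 6.0.0, Seurat and the mm10 build are named in the submitters' processing notes. Whether the counting used strand was not given in the sources used here. Of 22 samples, 18 lanes had files that were used; the day 3 and day 3.5 lanes of MULTI-seq 2 were not analysed here. Lanes of the 10X experiment and of pool C of MULTI-seq 2 carry no gastruloid calls and entered no test. No doublet caller was run, and the cells of the authors' table were taken as they stand.

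UMIs were summed per gastruloid (at least 30 cells) or per gastruloid and type (at least 20 cells, with at least 5 gastruloids a day and up to 4 types for a pair of days). Tests used edgeR 4.0.16 (quasi-likelihood, TMM, filterByExpr) in R 4.3.3 with Benjamini-Hochberg adjustment over all genes tested and a threshold of 0.05. The fits were tested on simulated data. Alternatives were DESeq2 1.42.0, other size factors, no filter, minimums of 100 cells (40 for types), the neural share as a covariate, and leaving out each lane. Levels, shares of cells thinned to 5000 UMIs and permutation tests (100000 resamples) were computed in Python 3.11.15 with scipy 1.17.1. Intervals and limits cover counting error only. The labels do not say that gastruloids came from separate cultures, so p-values measure the spread between these gastruloids.

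The plan was to name all 9 members in each comparison and, from other lists, the called genes with the 2 largest changes. The text gives a part of these. Lists of Hox cofactors and of chromatin genes were computed but are not described. For the patterns of Hoxd4, Hoxd9 and Hoxd8 the 5 genes of highest correlation are named. The members and lists were chosen with earlier results of these data known.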

Additional observations from a re-analysis of the deposited data

Results flagged for a closer look

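In groups of 4 to 10 gastruloids, 17 of 90 levels of a member in a type had a highest or lowest gastruloid far from the others. This was by Dixon's criterion at the 95% level, which gives about 1 in 20 for independent values of a normal distribution. The levels here share gastruloids, and some of the values flagged rest on as few as 10 UMIs. The count therefore cannot be set against that rate. Levels are in CPM.

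In Late Spinal Cord at day 5 of MULTI-seq 3 (n = 8), 1 gastruloid of 185 Late Spinal Cord cells held 41.3 CPM of Hoxd9 (239 UMIs) against 4.11 in the next, and the same gastruloid held 16.9 CPM of Hoxd8 (98 UMIs) against 9.36. In Somites of the same day 1 gastruloid of 29 such cells was highest in Hoxd1, at 54.8 against 25.7 in the next, and in Hoxd4, at 57.5 against 39.2 (n = 10).

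At day 4.5 of MULTI-seq 3 the gastruloids that stood apart held few cells of the type. Hoxd4 in Late Anterior PSM was at 106 in 1 gastruloid of 21 cells against 66.5 (n = 5). Hoxd1 in NMPs was at 21.5 against 9.74 (20 cells, n = 8), and Hoxd3 in Mature Somites at 11.7 against 7.97 (30 cells, n = 10).

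At day 4 of MULTI-seq 3 Hoxd9 was at 8.94 against 2.41 in Cardiopharyngeal Mesoderm (86 cells, n = 6) and at 18.7 against 9.06 in Somites (25 cells, n = 10). Hoxd8 in NMPs was at 23.2 against 15.3 (20 cells, n = 9). The lowest gastruloid stood apart for Hoxd9 in Late Anterior PSM, at 17.8 with the next at 38.5 (28 cells, n = 9), and for Hoxd4 in Mature Somites, at 4.45 with the next at 9.19 (64 cells, n = 7).

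At day 3.5 of MULTI-seq 3 Hoxd1 was at 12.3 against 6.06 in Caudal Neurectoderm (21 cells, n = 10) and at 9.02 against 6.68 in Early Spinal Cord (31 cells, n = 4), and Hoxd4 was at 49.4 against 32.5 in Early Spinal Cord (76 cells, n = 4). In MULTI-seq 2, Hoxd4 in Early Posterior PSM at day 4 was at 48.2 against 40.5 (40 cells, n = 4), and Hoxd9 in Early Spinal Cord at day 4.5 was at 31.8 against 8.78 (21 cells, n = 8).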

How the results depend on the processing

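Of 391 member fold changes refitted under an alternative, 372 kept their direction and side of the threshold, 4 lost the call, 9 gained one and 6 reversed. With the neural share as a covariate, genes called between days 4.5 and 5 of MULTI-seq 3 went from 1655 to 2972 and members called from 1 to 3; DESeq2 called 2 members, and with each lane left out 1 to 2 were called (2 without lane A or lane B). Between days 4 and 4.5 of MULTI-seq 2 the covariate took the genes called from 814 to 1597 and the members from 0 to 1, and without lane 2 or lane 3 of pool B the genes called were 340 to 535. With that covariate Hoxd9 reversed from 0.39 to -0.48 between days 3.5 and 4 of MULTI-seq 3, from -0.34 to 0.38 between days 4 and 4.5 of MULTI-seq 2, and from 0.21 to -0.0049 between MULTI-seq 3 and MULTI-seq 2 at day 4. Hoxd8 in the last comparison went from 0.09 to -0.043 with the covariate, to -0.18 with at least 100 cells, and ranged from -0.0038 to 0.11 with each lane left out (lowest without lane 3 of pool B). None of these reversed values passed the test, and the cause was not tested. Requiring 40 cells of a type left fewer gastruloids, and genes called went from 1661 to 581 in Caudal Epiblast and from 513 to 163 in NMPs. With no filter, members called in Caudal Epiblast went from 1 to 2, since Hoxd3 was then tested, and in Early Posterior PSM from 4 to 5, with Hoxd13 lower; in NMPs, Late Posterior PSM and Early Spinal Cord Hoxd10 was called as well. Of 188 levels by type, 0 moved by more than the SD with a mean of per-cell values, and 0 of 172 with at least 40 cells, where the ratio to the reported level ranged from 0.356 (Hoxd9 in Early Spinal Cord at day 4 of MULTI-seq 3, from 10.2 to 3.64 CPM) to 1.54 (Hoxd1 in Late Posterior PSM at day 4.5 of MULTI-seq 2). Shares of cells depend on the thinning depth: 199, 200 and 230 of 230 moved at 3000 UMIs, 8000 UMIs and unthinned. No paired analysis was possible because lane letters mark technical splits of one pool and gastruloids of different days share no number. The planned pool term for MULTI-seq 2 had no use, since only pool B has gastruloid calls, and no type there had enough gastruloids on both days for a test within it.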

Other observations

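The genes at the 5′ end of the other Hox clusters were looked at beside Hoxd13 over the days of MULTI-seq 3, as values of different pools with no test. Hoxa13 was at 0.261 CPM at day 3 and 0.0509 at day 5, and Hoxc13 at 0.413 and 0.0362. Hoxb13 went the other way, from 0.0224 to 0.23 CPM. Lanes without gastruloid calls gave 6.33 CPM of Hoxd4 at day 3 and 50.3 at day 4 in the 10X experiment, and 9.47 and 27.3 of Hoxd9. The 2 lanes of pool C of MULTI-seq 2, which hold days 4 and 4.5 together, gave 26.4 and 27.5 CPM of Hoxd4 and 11.3 and 11.1 of Hoxd9.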
